A study of Rattus norvegicus with 6 samples.

Results

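The genes described here are markers and drivers of the cell division cycle that are used to follow liver regeneration: Mki67, Cdk1, Ccna2, Ccnd1 and Pcna. They were chosen by Ensembl gene ID, and 4 of the 5 IDs have a row among the 26689 gene IDs of the deposited count tables. The Pcna ID (ENSRNOG00000028887) has no row and is not analysed here. The pairing of IDs with symbols came with the gene list, and the reference table used here holds 0 Ensembl IDs, so the pairs were not checked against it. An expression filter applied to all genes kept 9932 of them, among them Mki67 (ENSRNOG00000028137), Cdk1 (ENSRNOG00000000632) and Ccnd1 (ENSRNOG00000020918). Ccna2 (ENSRNOG00000015423) did not reach the filter and is given by its reads.

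The RNA came from rats (Rattus norvegicus) in 3 conditions, each measured in hepatocytes freshly isolated by collagenase perfusion and in whole liver. Treated IR animals had ischemia reperfusion (IR, a temporary clamp of the portal vein followed by restored flow) and received 9 mg/kg etanercept, a fusion protein that binds tumor necrosis factor, between 18 and 16 h earlier. Nitroglycerin, a nitric oxide donor, was infused into the same animals from before IR until its end, at a rate of 6 µg/kg/min. IR animals had ischemia reperfusion alone, and control animals were healthy and untreated. The labels name no sham operation, and they give no strain, sex or age. RNA of 3 animals was pooled into each of the 6 libraries, with the hepatocytes from additional animals and RNA taken 1 day after IR. Reads counted in genes ran from 1945331 in liver control to 7160610 in liver IR, and in hepatocytes from 2716994 in treated IR to 5335184 in IR. With 1 library per group, a difference between 2 libraries has no replicate check, and the intervals below cover counting error only. The labelled cell types could not be checked against marker genes, since no reference paired the IDs with symbols.

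Adult hepatocytes rarely divide, but they re-enter the cell cycle after injury or loss of liver mass. Cyclin D1, the product of Ccnd1, rises in response to growth signals and with its kinases drives cells through G1. Cyclin A2, from Ccna2, then acts in DNA replication and in G2, Cdk1 is the kinase that starts mitosis, and Mki67 encodes Ki-67, a protein of the nuclei and chromosomes of cycling cells. The other cells of the liver, such as macrophages, endothelial cells and stellate cells, carry the same genes when they divide. In pooled RNA, fewer cycling cells and less RNA of a gene per cell cannot be told apart.

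Promoter windows were read from RefSeq (build GRCr8) for Mki67 and Cdk1, because these genes belong to the late cell cycle genes whose promoters are known for pairs of a CCAAT box and the cell cycle genes homology region, with the letters TTTGAA. In the stretches below, 5′ to 3′ on the gene's strand, capitals mark TTTGAA and CCAAT, the latter read as ATTGG on the other strand.
Mki67, chr1:199952682-199952711, minus strand: aTTTGAAccgccgttttcgTTTGAATTGGg
Cdk1, chr20:19265204-19265233, plus strand: cggctctgATTGGctccTTTGAAcgtctac
Cdk1, chr20:19265263-19265292, plus strand: tttaccgcggtgagTTTGAAactgctggca
The Mki67 stretch began 118 bases before the start that the promoter table uses, and the Cdk1 stretches began 89 and 30 bases before it. The gene spans in RefSeq begin further upstream, so that the Mki67 stretch and the Cdk1 stretch nearest the start lie inside them. Searched on both strands, 18.35% of 33469 promoter windows of 300 bases held TTTGAA, 2.51% held it at least 2 times as both of these genes did, and 37.49% held CCAAT. The second TTTGAA of Mki67 and the ATTGG after it share a base. A match is a description of the letters and not evidence of binding. Ccna2 and Ccnd1 were not matched in the promoter table.

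Ccnd1 had the most reads of the 4 genes, 801 in all. It was high in the hepatocytes of untreated IR animals and low in both other hepatocyte libraries, while the whole liver libraries lay near one level. Reads counted in hepatocytes numbered 5 in treated IR, 259 in IR and 11 in control. Expressed as CPM (reads scaled to a common library size) with TMM, a scaling that allows for differences in library composition, this was 2.32 CPM in treated IR (95% exact Poisson interval 0.752 to 5.40), 49.96 CPM in IR (44.1 to 56.4) and 3.41 CPM in control (1.70 to 6.09). The treated IR and control hepatocyte libraries did not differ beyond their counting intervals, and the IR library stood far above both. In whole liver Ccnd1 had 250 reads in treated IR, 203 in IR and 73 in control, or 33.3 CPM (29.3 to 37.7), 30.01 CPM (26.0 to 34.4) and 31.8 CPM (24.9 to 39.9). With library totals alone in place of TMM, the treated IR liver level was 41.3 CPM, above its interval. The liver intervals overlapped one another and lay below that of IR hepatocytes and above those of the other hepatocyte libraries. With TMM the order of levels was thus IR hepatocytes, then the 3 liver libraries, then control and treated IR hepatocytes. The order among the liver libraries, and between control and treated IR hepatocytes, was not resolved. With library totals alone IR hepatocytes were at 48.5 CPM against the 41.3 CPM of treated IR liver, and no intervals were computed for that scaling.

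**Figure D1:**
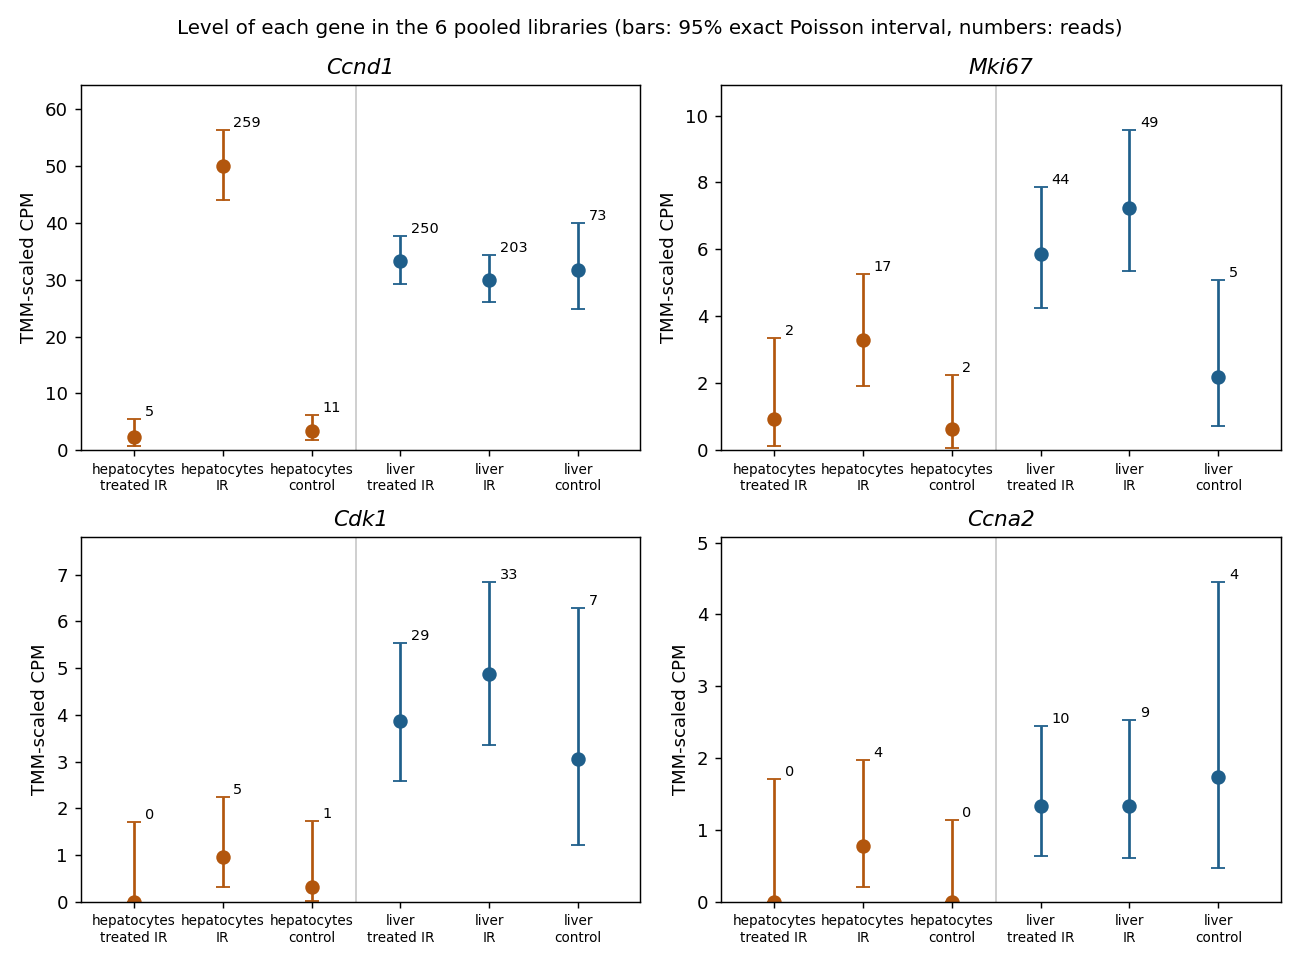
TMM-scaled CPM (vertical axis, linear, from 0) of Ccnd1, Mki67, Cdk1 and Ccna2 in each of the 6 libraries, with 95% exact Poisson intervals for counting error and the number of reads above each point. Ccnd1 stands at 49.96 CPM in IR hepatocytes, against 2.32 CPM in treated IR hepatocytes and 3.41 CPM in control hepatocytes, and between 30.01 and 33.3 CPM in the liver libraries.

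In hepatocytes the treated IR library had 0.0464 times the Ccnd1 level of the IR library (95% Clopper-Pearson interval 0.0149 to 0.110), which is 21.6-fold lower. A gene was called apart between 2 libraries when its ratio was at least 2-fold and the counting interval excluded equality. By that rule 23.3% of the 9932 genes were apart in this pair, and Ccnd1 alone of the 3 described genes that passed the filter was apart. With a prior count of 2 added before taking log2 ratios, 1 of 9932 genes, Ccnd1 itself, had a ratio this low. This place depended on the prior: with a prior count of 0.5 there were 34 such genes, and by the ratio of reads with no prior 248, Ccnd1 included. The IR library had 14.7 times the Ccnd1 level of the control library (8.06 to 29.8), and 5 of 9932 genes, Ccnd1 included, had a log2 ratio at least as high with a prior count of 2, or 25 with 0.5. By the ratio of reads with no prior, 9685 of the 9932 genes, Ccnd1 included, had one at most as high, so this place depended on the prior too. The comparisons of treated IR with IR and of IR with control share the IR library. Treated IR against control gave a ratio of 0.680 (0.185 to 2.12), which was not apart, in a pair where 8.32% of genes were.

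In whole liver the same Ccnd1 ratios were close to 1. Treated IR against IR gave 1.11 (0.918 to 1.34), IR against control 0.944 (0.719 to 1.25) and treated IR against control 1.05 (0.804 to 1.38). These intervals held 1 and left out a 2-fold difference in either direction. The liver ratio of treated IR to IR went above its interval with other processing, though short of 2-fold. Its log2 value was 0.54 with library totals alone and 0.47 with each library thinned to 1945331 reads. The ratio of treated IR to IR in hepatocytes was 0.0418 times that in liver (95% exact conditional interval 0.0132 to 0.102), and the ratio of IR to control was 15.5 times that in liver (7.90 to 33.2). With 1 library in each cell, this difference between preparations has no test beyond counting error. The hepatocyte libraries lay further apart over all genes too. In hepatocytes 16.5% of genes were apart between IR and control, against 5.98% in liver, and for treated IR against IR the shares were 23.3% in hepatocytes and 2.77% in liver. What part the IR hepatocyte library as a whole plays in the Ccnd1 result was not tested.

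**Figure D2:**
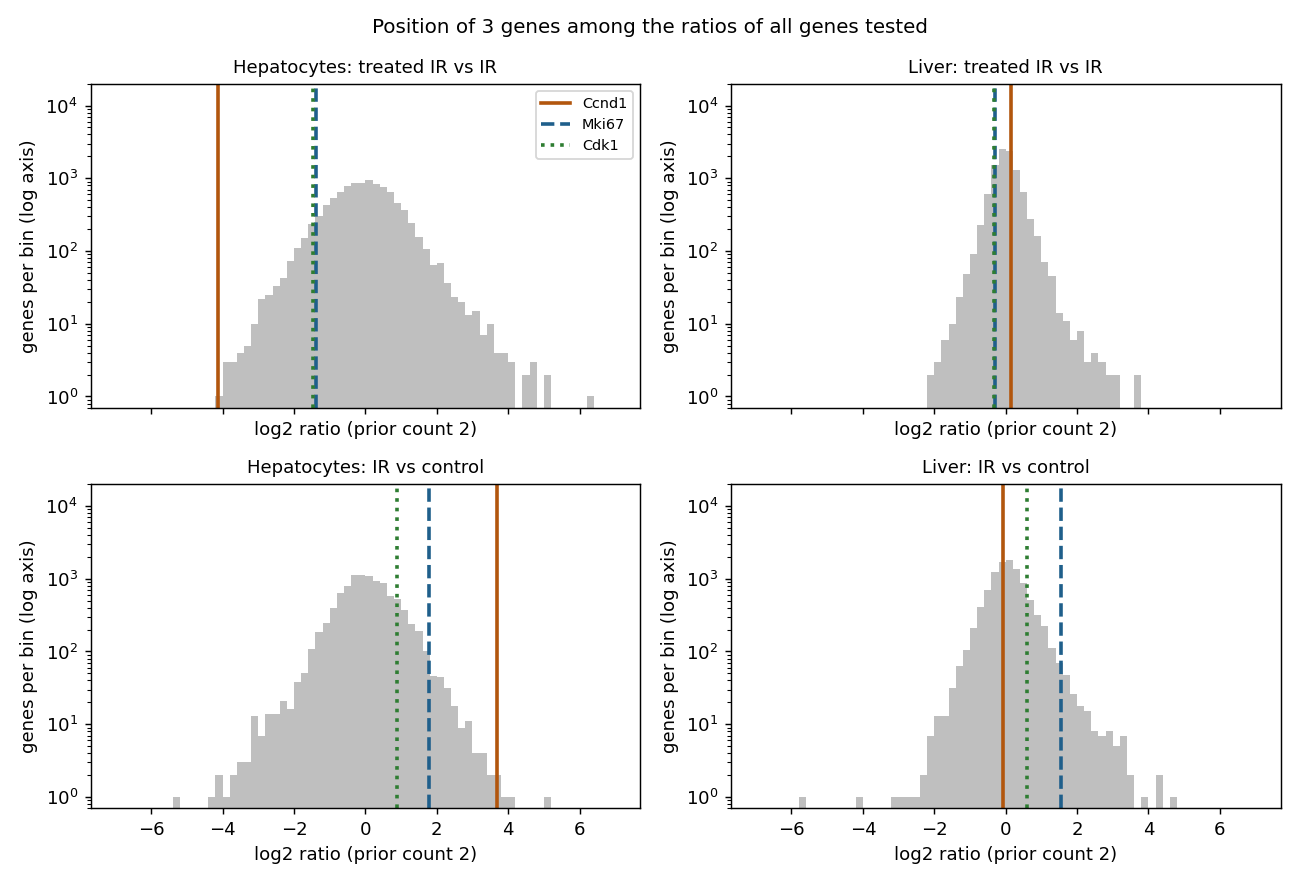
Histograms of the log2 ratios (prior count 2) of 9932 genes for treated IR against IR (top) and IR against control (bottom), in hepatocytes (left) and liver (right), with a log vertical axis and lines at Ccnd1, Mki67 and Cdk1. Ccnd1 lies at the lower edge of the hepatocyte treated IR against IR panel and near the upper edge of the hepatocyte IR against control panel, and close to 0 in both liver panels.

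Mki67 was higher in IR than in control in both preparations, on few reads. Hepatocytes had 2 reads in treated IR, 17 in IR and 2 in control, which equals 0.926 CPM (0.112 to 3.35), 3.28 CPM (1.91 to 5.25) and 0.619 CPM (0.0750 to 2.24). Liver had 44 reads in treated IR, 49 in IR and 5 in control, which equals 5.86 CPM (4.26 to 7.87), 7.24 CPM (5.36 to 9.58) and 2.18 CPM (0.707 to 5.08). Both liver libraries after IR thus had a higher level than liver control, though the interval of treated IR overlapped that of control. In hepatocytes the IR library had the highest level, with an interval that overlapped those of treated IR and control. The liver ratio was 3.33 for IR against control (1.33 to 10.7) and 2.69 for treated IR against control (1.07 to 8.70). By the rule of size Mki67 was apart in each, as were 5.98% and 7.21% of all genes. Both ratios share the liver control library, which had 5 Mki67 reads and the fewest reads in genes. Treated IR against IR in liver gave 0.809 (0.526 to 1.24), on the other side of 1 with library totals alone, where the log2 ratio was 0.086.

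In hepatocytes the Mki67 ratio of IR to control was 5.30 (1.26 to 47.3). With Ccnd1, 2 of the 3 described genes that passed the filter were thus apart, in a pair where 16.5% of all genes tested were. Treated IR against IR gave 0.282 (0.0317 to 1.19), which was not apart, and no fold is given for treated IR against control, with 2 reads in each. The intervals of the Mki67 ratios span more than an order of magnitude in hepatocytes, so only large differences were detectable at this depth. The Mki67 ratio of IR to control in hepatocytes was 1.59 times that in liver (0.233 to 18.2), so a difference between the preparations was not detectable.

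Cdk1, the mitotic kinase, had 6 reads in all hepatocyte libraries together and 69 in the liver libraries. There were 0 reads in treated IR, 5 in IR and 1 in control hepatocytes, against 29, 33 and 7 reads in the liver libraries in the same order. The levels were 0.964 CPM in IR hepatocytes (0.313 to 2.25) and 0.310 CPM in control hepatocytes (0.00784 to 1.73). The count of 0 in treated IR hepatocytes allows up to 1.39 CPM, taken as 3 reads in that library, and its exact Poisson interval reaches 1.71 CPM. In liver Cdk1 was at 3.86 CPM in treated IR (2.59 to 5.55), 4.88 CPM in IR (3.36 to 6.85) and 3.05 CPM in control (1.22 to 6.28), and these intervals overlapped. The liver ratio of IR to control was 1.60 (0.697 to 4.29), that of treated IR to control 1.27 (0.543 to 3.43) and that of treated IR to IR 0.792 (0.464 to 1.34). None of these was apart, and the log2 ratio of treated IR to IR turned to 0.054 with library totals alone. In hepatocytes IR against control gave 3.11 (0.349 to 147), on 5 and 1 reads.

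Ccna2 had the fewest reads, 27 in all 6 libraries. It had 0 reads in treated IR, 4 in IR and 0 in control hepatocytes, and 10, 9 and 4 reads in the liver libraries in the same order. The level in IR hepatocytes was 0.772 CPM (0.210 to 1.98), below the 0.929 CPM that a count of 0 allows in control hepatocytes and the 1.39 CPM it allows in treated IR hepatocytes. No difference between hepatocyte libraries was therefore detectable. In liver the levels were 1.33 CPM in treated IR (0.639 to 2.45), 1.33 CPM in IR (0.608 to 2.53) and 1.74 CPM in control (0.474 to 4.46), with overlapping intervals. Its liver ratio was 0.764 for IR against control (0.213 to 3.40), an interval that holds both 1 and the 3.33 of Mki67. Treated IR against control gave 0.765 (0.221 to 3.34) and treated IR against IR 1.001 (0.366 to 2.78).

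**Figure D3:**
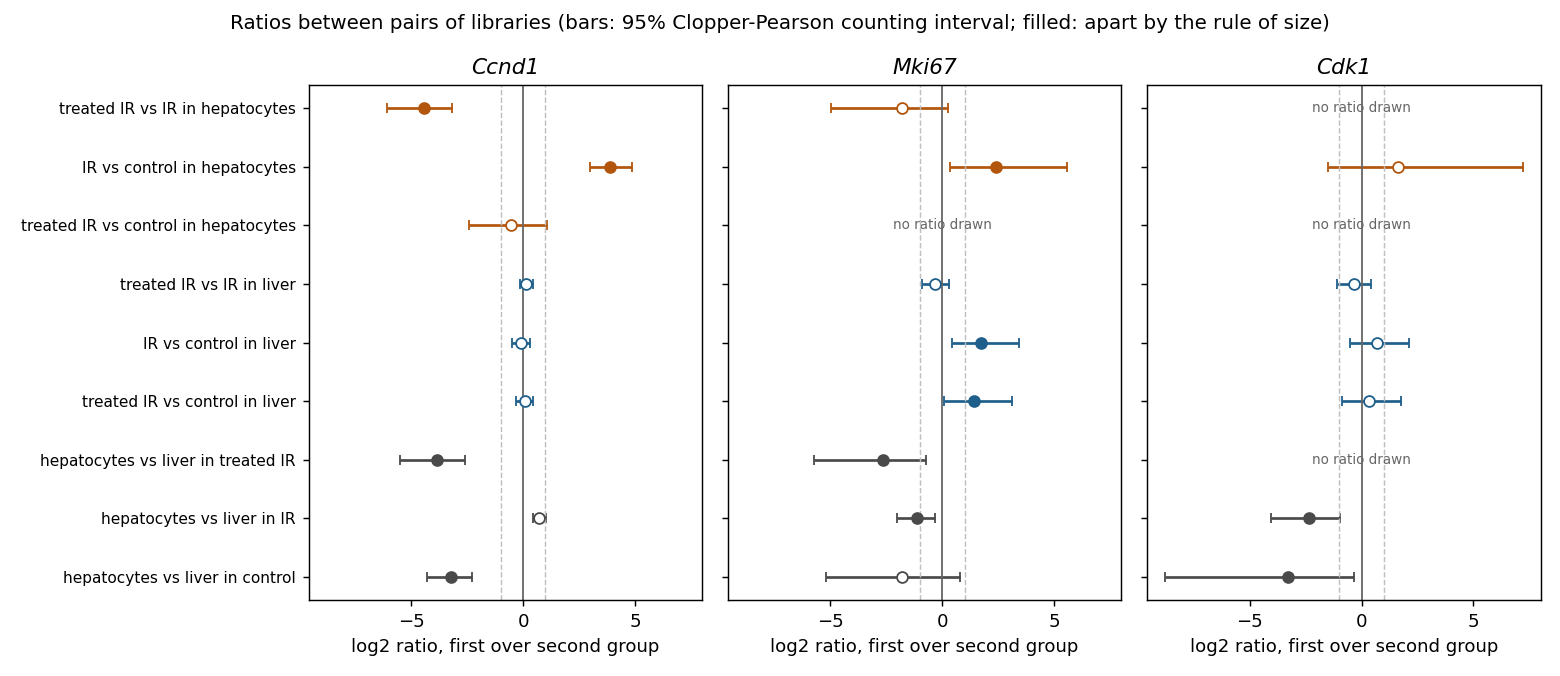
Log2 ratios of Ccnd1, Mki67 and Cdk1 between pairs of libraries (horizontal axis, the group named at the start over the other) with 95% Clopper-Pearson intervals, dashed lines at 2-fold, and filled points for pairs apart by the rule of size. No ratio is drawn where a library had 0 reads or both had at most 3. Ccnd1 moves in opposite directions in the hepatocyte pairs that share the IR library, and its liver pairs cluster at 0.

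Hepatocytes were compared with liver within each condition, and Ccnd1, Mki67 and Cdk1 had lower levels in hepatocytes in all pairs but that of Ccnd1 in IR. For Mki67 in control, and for Ccna2 in all 3 conditions, the difference was within counting error or the limit of a count of 0. In treated IR, Ccnd1 was 14.4-fold lower in hepatocytes (6.08 to 44.7) and Mki67 6.33-fold lower (1.65 to 53.9). Cdk1 was at least 2.78-fold lower when 3 reads stand in place of its 0, and 2.12-fold lower at the near end of the counting interval. All 3 were apart, as were 19.7% of all genes, but Cdk1 passed the expression filter through the liver libraries alone, which favours a lower level in hepatocytes here and in the other conditions. Mki67 reached the filter's required level in 3 liver libraries and in only 1 hepatocyte library, so a like limit applies to it. In control, Ccnd1 was 9.33-fold lower (4.92 to 19.5) and Cdk1 had 0.102 times the liver level (0.00225 to 0.791), on 1 and 7 reads, in a pair where 11.1% of genes were apart. In IR, Cdk1 had 0.198 times the liver level (0.0603 to 0.510) and Mki67 0.453 times (0.244 to 0.7999), where 17.4% of genes were apart. Ccnd1 went the other way in IR, at 1.66 times the liver level (1.38 to 2.01), short of the 2-fold rule.

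A test over samples was possible only in a model of all 6 libraries with preparation and condition as terms (edgeR's quasi-likelihood test, Benjamini-Hochberg adjustment over 9932 genes). Each SE given with a log2 ratio was derived from it, as its size divided by the square root of the test's F value. For Cdk1 the log2 ratio of hepatocytes to liver was -2.97 (SE 0.75), with an edgeR adjusted p of 0.0292, lower in 3 of 3 conditions, in a comparison that called 5.34% of all genes. Cdk1 passed the expression filter through the liver libraries alone, of which 3 reached the required level against 0 in hepatocytes. Its adjusted p was 0.0816 without liver control, 0.165 without liver treated IR, 0.070 without hepatocyte control and 0.0691 without hepatocyte treated IR. It ran from 0.00277 to 0.165 over 11 alternatives. A fit that leaves out a library has 1 residual degree of freedom and 1 library in that condition, which is assumed to vary like the others. The log2 difference of Mki67 was -1.64 (SE 0.54), with an edgeR adjusted p of 0.135, and that of Ccnd1 was -1.68 (SE 0.67), with an edgeR adjusted p of 0.299. Mki67 reached the filter's required level in 3 liver libraries against 1 in hepatocytes, which also favours a lower level in hepatocytes. With no expression filter Ccnd1 passed at -1.68 (edgeR adjusted p = 0.00022), in a fit that called 712 of 16548 genes. It was at -3.51 without hepatocyte IR and at -3.46 without liver IR, fits that drop the comparison within IR, where Ccnd1 went the other way. Over 13 alternatives its adjusted p ran up to 0.752.

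For conditions the model called 0 of 9932 genes in any comparison. For IR against control, edgeR gave 332 genes an unadjusted p under 0.05, Mki67 and Ccnd1 among them. DESeq2 and limma-voom likewise made 0 calls, and 119 and 300 genes had such a p with them. Mki67 had a log2 ratio of 1.996 (SE 0.69, unadjusted p = 0.0121, edgeR adjusted p = 0.996), higher in 2 of 2 preparations. Ccnd1 had one of 2.03 (SE 0.78, unadjusted p = 0.0204, edgeR adjusted p = 0.996), higher in 1 of 2 preparations. That value rested on the hepatocyte IR library: without it the Ccnd1 log2 ratio was -0.17. Without liver IR, when hepatocytes alone stood for IR, it was 4.05, and without liver control 3.23. Only the ratios are given, because the spread in such a fit comes from the other conditions, with 1 residual degree of freedom. The fit without liver IR also lacks the liver library in which Ccnd1 was not higher. With no expression filter the Ccnd1 log2 ratio was 2.06 (edgeR adjusted p = 0.0245), in a fit that called 3 of 16548 genes. Cdk1 was at 0.94 (SE 0.86), with an edgeR adjusted p of 0.996.

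For treated IR against IR, calls numbered 0 with edgeR, 0 with limma-voom and 1 with DESeq2, and none of them was a gene described here. Genes with an unadjusted p under 0.05 numbered 297, 299 and 177. Ccnd1 had a log2 ratio of -1.95 (SE 0.78, unadjusted p = 0.0255, edgeR adjusted p = 0.981), lower in 1 of 2 preparations. Without liver IR it was -4.12, without liver treated IR -3.87 and without hepatocyte IR 0.085. These fits too leave 1 library in a condition and take the spread from the others, so only their ratios are given. With no expression filter the Ccnd1 log2 ratio was -1.97 (edgeR adjusted p = 0.00506), in a fit that called 31 of 16548 genes. Mki67 was at -0.73 (SE 0.58) and Cdk1 at -0.74 (SE 0.78), each with an edgeR adjusted p of 0.981. For treated IR against control, where edgeR, DESeq2 and limma-voom made 0 calls and gave 230, 101 and 226 genes an unadjusted p under 0.05, Mki67 was at 1.27 (SE 0.73), Cdk1 at 0.20 (SE 0.88) and Ccnd1 at 0.08 (SE 0.72), with edgeR adjusted p of 1 for each. For the mean of both IR conditions against control (0 calls with edgeR, DESeq2 and limma-voom, and 245, 98 and 257 genes with an unadjusted p under 0.05) Mki67 was at 1.63 (SE 0.65), Ccnd1 at 1.06 (SE 0.65) and Cdk1 at 0.57 (SE 0.78). Without liver IR, with the same limit, Ccnd1 was at 1.99 there.

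The 6 libraries differ in depth and come from 2 preparations, so a correlation across them mixes depth and preparation with condition. Across them the log2 levels of Mki67 and Cdk1 had a Pearson r of 0.87, those of Mki67 and Ccnd1 0.83 and those of Cdk1 and Ccnd1 0.82. The genes whose profile was most like the mean standardised profile of Mki67, Cdk1 and Ccnd1 were ENSRNOG00000004624 (r = 0.992 over 6 libraries) and ENSRNOG00000009837 (r = 0.992). The files and the reference table give no symbol for either. ENSRNOG00000004624 was at 8.80, 14.1 and 9.60 CPM in treated IR, IR and control hepatocytes and at 17.6, 17.9 and 13.9 CPM in the liver libraries in the same order. ENSRNOG00000009837 was at 8.34, 14.9 and 8.05 CPM in the hepatocyte libraries and at 16.4, 17.9 and 15.2 CPM in the liver libraries, again in that order. Within each gene the highest level was thus near 2 times the lowest, a narrower range than that of Ccnd1.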

How the data were processed

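Per the labels' protocols, mRNA was selected from total RNA and prepared with an Ion Total RNA-Seq kit. Per the series' design text, RNA of 3 animals was pooled per group and sequenced on an Ion Torrent Proton. The authors deposited raw counts of reads for each Ensembl gene ID. The submitters' processing notes name TopHat2 2.0.13 and HTSeq 0.6.1, with build, annotation and strand setting not given in the sources used here. Overlapping or antisense genes could share reads. The 5 summary lines per file entered neither library sizes nor tests. Reads outside genes made up 6.23% to 8.34% and ambiguous reads 0.358% to 0.798% of uniquely aligned reads. Reads in genes ran from 1945331 (liver control) to 7160610 (liver IR), so that a count of 0, taken as up to 3 reads, allows 0.399 to 1.39 TMM-scaled CPM.

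Genes were filtered with filterByExpr (minimum count 10, by condition) and scaled with TMM. Pairs of libraries were compared by scaled ratios with Clopper-Pearson intervals, and conditions or preparations by edgeR's quasi-likelihood test in an additive model (2 residual degrees of freedom, adjusted p at most 0.05). The hepatocyte and liver pools of a condition, from different animals, counted as separate samples, and p-values measure only the spread between them, including any response that differs between preparations. Reads carry no molecular identifiers, so intervals and floors cover counting error only. DESeq2 1.42.0, limma 3.58.1 and edgeR 4.0.16 were run in R 4.3.3. The edgeR fit and the comparison of pairs were tested on simulated counts.

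The members and lists were chosen with earlier results of these data known. Named genes are the listed members and the 2 tested genes most like their mean profile. Lists of other cell cycle, regeneration and cell type marker genes were not read, because no reference paired IDs with symbols. Levels were not compared between genes, since transcript lengths were not used here. Alternatives were other scalings, filters, tools, prior counts and fold rules, thinning to 1945331 reads and leaving out each library.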

Additional observations from a re-analysis of the deposited data

Results flagged for a closer look

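The Ccnd1 ratios of hepatocytes and liver lay on opposite sides of 1 in each comparison of conditions, although all liver intervals held 1. With 1 library per group, the difference was not tested beyond counting error. For IR against control the ratio was 14.7 in hepatocytes and 0.944 in liver, which differ by a factor of 15.5 (95% exact conditional interval 7.90 to 33.2). For treated IR against IR it was 0.0464 in hepatocytes and 1.11 in liver, a factor of 0.0418 (0.0132 to 0.102). For treated IR against control it was 0.680 in hepatocytes and 1.05 in liver, a factor of 0.649 (0.172 to 2.12), within counting error. The 2 large factors share the hepatocyte IR library.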

How the results depend on the processing

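No paired analysis was possible because the labels carry no replicate numbers and each group is 1 library. Another scaling shifts all ratios of a pair together, by -0.64 to 0.39 on the log2 scale with library totals alone and by -0.032 to 0.0011 with DESeq2's size factors. Of the 65 alternatives for the number of members called by the model, 48 stayed within 1.5 times the value reported. In every comparison of conditions that value was 0, so there the 48 count only a 0 that stayed 0. For hepatocytes against liver 1 was called, as were 530 of 9932 genes. Only DESeq2's size factors, library totals and limma-voom kept the 1, with 534, 524 and 569 of 9932 genes called. No expression filter gave 2 (712 of 16548 genes called) and a minimum count of 50 gave 0 (158 of 5902). Thinning gave 0 (286 of 8335) and DESeq2 gave 0 (441 of 9932). Leaving out any library changed the number too. Cdk1 did not pass the filter with a minimum count of 50 or after thinning, so it was not tested in those settings. No expression filter gave 1, in place of 0, for IR against control (3 of 16548 genes called) and for treated IR against IR (31 of 16548), in each case Ccnd1. Leaving out a library also changed the number for these and for any IR against control, but not for treated IR against control. Those fits leave 1 library in a condition.

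Of the 63 alternatives for the number of members apart, 49 stayed within that range. They include all those for treated IR against IR in liver and for treated IR against control in hepatocytes, where 0 stayed 0. A minimum count of 50, with 5902 genes tested, gave 0 for IR and for treated IR against control in liver (254 and 292 of all genes apart). It gave 1 for IR against control in hepatocytes (879 of all genes). For hepatocytes against liver in treated IR, IR and control it gave 1, 0 and 1 (894, 646 and 482 of all genes). Mki67 and Cdk1 did not pass that filter, so only Ccnd1 could be apart there. The 4-fold rule gave 0 for both liver comparisons with control (129 of 9932 genes apart for IR and 170 for treated IR). It gave 1 for hepatocytes against liver in IR (729 of 9932). Thinning, after which Cdk1 did not pass the filter, gave 0 for treated IR against control in liver (582 of 8335 genes apart). It gave 0 and 1 for hepatocytes against liver in IR and control (1242 and 811 of 8335). Library totals gave 2 in place of 1 for treated IR against IR in hepatocytes, where 2568 of 9932 genes were apart in place of 2311. Scaling and filtering on the pair alone gave 1 for hepatocytes against liver in control, with 8517 genes tested in place of 9932 and Cdk1 not among them. Of these 8517 genes, 778 were apart.

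Single genes turned direction in uncalled comparisons. For treated IR against control the DESeq2 fit gave -0.11 for Ccnd1 and -0.0020 for Cdk1, and Ccnd1 ran from -2.27 to 1.65 and Cdk1 from -3.90 to 0.47 when a library was left out. Ccnd1 ran from -0.17 to 4.05 for IR against control, from -4.12 to 0.085 for treated IR against IR and from -0.34 to 2.44 for any IR against control, and Cdk1 from -1.50 to 1.20 for the last. Depth limits Cdk1 and Ccna2 most, with 6 and 4 reads over the hepatocyte libraries.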
